A study of Mus musculus with 6 samples.

Results

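The genes described here are the 50 that encode the machinery for entry of proteins into the endoplasmic reticulum (ER) and for their transport between the ER and the Golgi. They were taken by gene symbol from the 21456 genes of the deposited RNA-seq table. The table covers white adipose tissues (WATs) of 6 mice fed a chow diet. The 3 control mice carried Ntsr2 flox/flox, and the 3 Ntsr2 AKO mice carried Adipoq-cre::Ntsr2 flox/flox, in which Cre is driven by the promoter of the adipocyte gene Adipoq and removes the neurotensin receptor gene Ntsr2. Both groups carried the floxed allele, so Cre was the only stated difference between them. RNA came from whole tissue, which also holds cells that do not use the Adipoq promoter, and in such samples fewer cells of a type and less RNA per cell cannot be told apart. The age of these mice and the fat depot are not given in the sources used here. The labels number the mice 3, 4 and 5 in each group, and values below are given in that order.

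Most secreted proteins and many membrane proteins begin with a signal sequence that is caught by the signal recognition particle (SRP) as it leaves the ribosome. The particle docks at its receptor on the ER, the chain passes through the Sec61 channel, and signal peptidase cuts the signal sequence off. Folded cargo then leaves in vesicles with a COPII coat, while vesicles with a COPI coat bring receptors and escaped ER residents back from the Golgi. White adipocytes depend on this route to secrete adiponectin, leptin and lipoprotein lipase.

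The targeted gene Ntsr2 was listed at 83.8, 64.0 and 153 normalized counts (reads divided by a size factor for each mouse) in control mice and at 3.10, 8.29 and 0 in Ntsr2 AKO mice, with no overlap (limma adjusted p = 0.499, DESeq2 adjusted p = 0.000111). Recovered totals were 60405373 to 66098226 reads per control mouse and 54085088 to 56268725 per Ntsr2 AKO mouse. The summed level of 8 adipocyte markers, with none at 0, was 1222421 to 1785732 in control mice and 1532549.6 to 1760654 in Ntsr2 AKO mice. The summed level of 12 skeletal muscle markers differed far more between mice. It was 936, 403 and 2810885 in control mice and 1448, 89619 and 196675 in Ntsr2 AKO mice, with 2 markers at 0 in control mouse 3, 5 in control mouse 4, 7 in Ntsr2 AKO mouse 3 and 1 in Ntsr2 AKO mouse 5. The 8 fibroblast and progenitor markers, none of them at 0, summed to 201350.4 to 385126 in control mice and reached 686532 in Ntsr2 AKO mouse 5, against 267764 and 246984 in the other Ntsr2 AKO mice. Leaving out control mouse 5 moved the log2 fold change by over 1.5 times or changed its sign for 18 of the 50 genes, and leaving out Ntsr2 AKO mouse 5 did so for 26. For some of the genes described below such values are given beside the main ones.

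All 50 genes were well expressed and none passed the test after adjustment. Their mean levels ran from 617 to 19503 normalized counts, so all passed the minimum mean of 10 normalized counts, as did 16157 genes of the table. In the limma fit on log2(normalized count + 1), 0 of the 50 genes had an adjusted p under 0.05 (background 0.00619% of genes tested, 1 gene), and their adjusted p ran from 0.565 to 0.9996. DESeq2 and edgeR on the recovered reads also called 0 of the 50 after adjustment (background 1.5% and 0.0%), with lowest adjusted p of 0.308 and 0.608. At an unadjusted limma p under 0.05, 3 genes were lower in Ntsr2 AKO mice (background 5.27%) and 0 were higher (background 3.08%). The 3 genes were Sec31a, Sec24d and Arcn1, and their number was close to what the background share gives for a list of this size. The number of lower genes was 1 without control mouse 3, 0 without control mouse 4 and 2 without control mouse 5. It was 6 without Ntsr2 AKO mouse 3 and 0 without Ntsr2 AKO mouse 4 or 5. For these fits the shares over all genes tested are not given. Whether their numbers are high or low for a list of this size therefore cannot be said. DESeq2 gave 3 lower genes, Sec31a, Sec24d and Arcn1, at that unadjusted threshold (background 6.5%) and edgeR gave 1, Sec31a (background 4.9%), with 0 higher in either.

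The differences were small and mostly downward. Of the 50 genes, 35 had a log2 fold change below 0 and 15 above 0, which is 70.0% lower against 51.0% of all genes tested, and the median difference on the log2 scale was -0.10, while that of all genes tested was -0.0071. In 11 of the 50 (22.0%) the groups were apart with the Ntsr2 AKO mice lower (background 8.16%), and in 0 they were apart with the Ntsr2 AKO mice higher (background 6.82%). These 11 were Srp54a, Srprb, Sec23b, Sec24c, Sec24d, Sec31a, Sar1a, Copa, Arcn1, Surf4 and Tmed10. Of the markers of other cells tested, 7 of 7 macrophage and 6 of 6 T cell markers had a log2 fold change below 0 and 7 of 8 fibroblast and progenitor markers one above 0, none with an unadjusted p under 0.05, and their part was not tested. The lean toward lower values depended on the scaling between mice. After quantile normalization, which gives every mouse the same distribution of values, 26 genes were lower and 24 higher (52.0% lower against 44.4% of all genes), the median was -0.0091 against 0.045, and the groups did not overlap for 1 lower gene, Srprb (background 6.13%), and 1 higher gene, Sec62 (background 8.19%). With edgeR's TMM scaling the groups did not overlap for 8 lower genes (background 7.96%) and 0 higher (background 7.13%). The median within-group SD of the 50 genes was 0.17 on the log2 scale against 0.30 for all genes tested. The latter include genes of far lower level, and the comparison was not matched for level. For 26 of the 50 the within-group SD was above the size of the difference. For 47 of the 50, the 95% interval of the difference spanned 0. For 48 of the 50, that interval lay within a 2-fold change in either direction, the exceptions being Sar1b and Kdelr3.

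**Figure D1:**
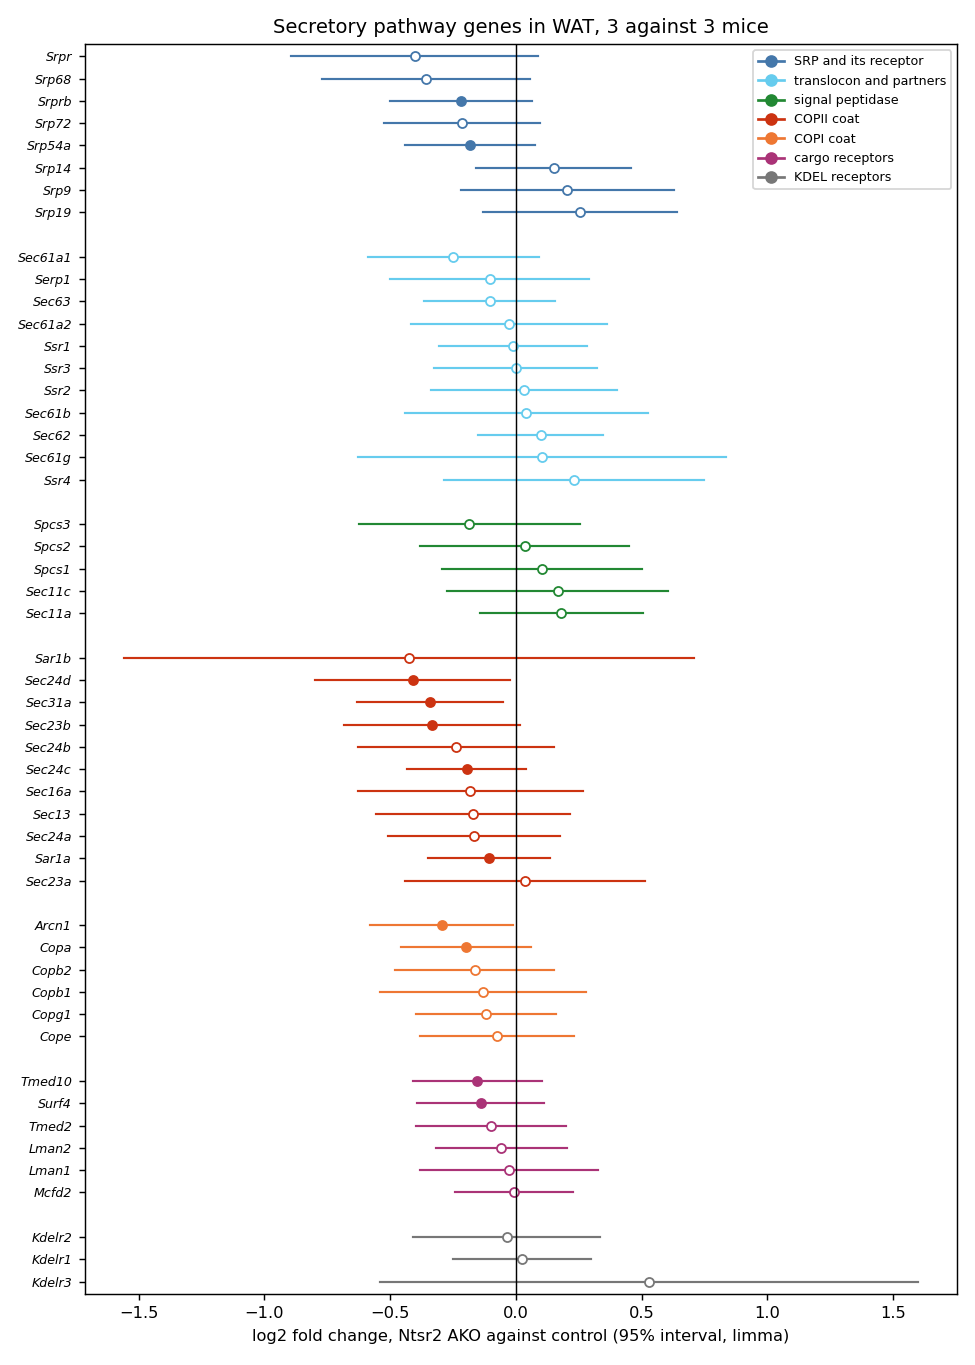
Log2 fold change (x axis, Ntsr2 AKO against control, 3 mice per group) of each of the 50 genes (y axis), coloured by role, with the 95% interval from limma as a line; filled points mark genes whose groups did not overlap. COPII, COPI and cargo receptor genes sit almost wholly left of 0 and the other roles on both sides, while the intervals of Sar1b and Kdelr3 are the widest.

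The COPII coat, which buds vesicles from the ER, held the 2 genes with the smallest p, Sec31a and Sec24d. Of its 11 genes, 10 were lower and 1 (Sec23a) was higher, with a median log2 fold change of -0.19, and the groups did not overlap for 5 (background 8.16%). After quantile normalization 10 were still below 0, with a median of -0.091, and the groups overlapped for all 11. Sec31a, which with Sec13 forms the outer cage of the coat (gene at chromosome 5, 100361649 to 100416234, mm10), had 6523, 5987 and 5742 in control mice and 5382, 4651 and 4411 in Ntsr2 AKO mice. Every Ntsr2 AKO mouse was below the lowest control mouse, and the means were 6084 ± 399.5 against 4814 ± 506 (SD, n = 3 mice per group). The level in Ntsr2 AKO mice was 0.79-fold that of control mice, a log2 fold change of -0.34 ± 0.12 (± SE, here and in the log2 values below, limma adjusted p = 0.565). The log2 fold change of Sec31a was -0.38 without control mouse 5 and -0.28 without Ntsr2 AKO mouse 5, where its unadjusted p was no longer under 0.05. Its cage partner Sec13, which also serves in the nuclear pore, had 3071, 4248 and 3113 in control mice and 2888, 2888 and 3418 in Ntsr2 AKO mice, with overlapping groups (log2 fold change -0.17 ± 0.16).

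The inner COPII layer is built from Sec23 and Sec24, and Sec24 proteins pick the cargo. The gene set holds 4 Sec24 paralogues, all with a log2 fold change below 0. Sec24d (gene at chromosome 3, 123267455 to 123365641), which is known for its part in collagen export, had 3458, 3568 and 3279 in control mice and 3256, 2379 and 2224 in Ntsr2 AKO mice. The groups were separate by a narrow margin, since Ntsr2 AKO mouse 3 lay just under the lowest control mouse while Ntsr2 AKO mice 4 and 5 were well below. Means were 3435 ± 146 against 2619.6 ± 556 (SD, n = 3 mice per group), a log2 fold change of -0.41 ± 0.16 (limma adjusted p = 0.588). Sec24c had 6241, 6133 and 5844 in control mice and 5478, 5376 and 5064 in Ntsr2 AKO mice, with little spread in either group and no overlap (log2 fold change -0.19 ± 0.10, limma adjusted p = 0.632). The groups overlapped for Sec24a (-0.17 ± 0.14, and -0.053 without control mouse 5) and Sec24b (-0.24 ± 0.16, and -0.10 without Ntsr2 AKO mouse 5). Per kilobase of transcript, Sec24c stood at 1275 normalized counts, Sec24b at 881, Sec24d at 776 and Sec24a, the lowest of all 50 genes, at 270.4. The Sec23 paralogues differed in direction. Sec23b had 2259, 2740.1 and 2132 in control mice and 2092, 1882 and 1680.0 in Ntsr2 AKO mice, with no overlap (log2 fold change -0.33 ± 0.15, limma adjusted p = 0.601), while Sec23a had 2571, 2034 and 3315 in control mice and 2363, 2592 and 3043 in Ntsr2 AKO mice, with groups that overlapped throughout (log2 fold change 0.035 ± 0.20). The difference between these paralogues was not tested. Sec16a, the scaffold of ER exit sites, also overlapped (-0.18 ± 0.19, and -0.051 without Ntsr2 AKO mouse 5).

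COPII assembly is started by the small GTPase Sar1, of which mice have a pair of genes. Sar1a had 14269.8, 14439 and 13780.1 in control mice and 13218, 12717 and 13536 in Ntsr2 AKO mice, a small separation of the groups (log2 fold change -0.11 ± 0.10, limma adjusted p = 0.788). Sar1b (gene at chromosome 11, 51763687 to 51791925), which is known for its role in lipoprotein export, had 2553, 3691 and 9736 in control mice and 2731, 3174 and 4387 in Ntsr2 AKO mice. Control mouse 5, the mouse with the most skeletal muscle transcripts, stood far above the other 5, whose values overlapped. Sar1b had the lowest log2 fold change of the 50 genes (-0.42 ± 0.48, 95% interval -1.56 to 0.71), and without control mouse 5 it was 0.13. With the mean level of the skeletal muscle markers as a covariate it was -0.52 (limma adjusted p = 0.606).

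**Figure D2:**
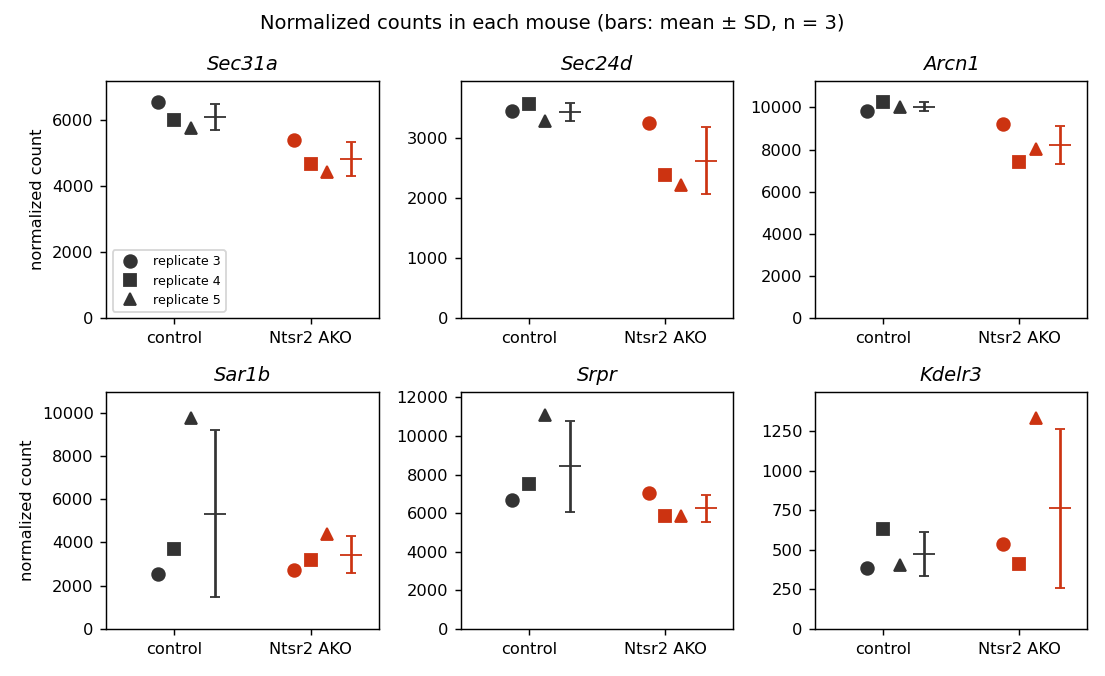
Normalized counts (y axis, from 0) of 6 genes in each mouse by group (x axis), with the marker shape giving the mouse number and bars giving the mean ± SD (n = 3). For Sec31a, Sec24d and Arcn1 all Ntsr2 AKO mice lie below all control mice, whereas Sar1b and Srpr are high in control mouse 5 and Kdelr3 is high in Ntsr2 AKO mouse 5.

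The COPI coat, which carries traffic back from the Golgi to the ER, had a log2 fold change below 0 for all 6 of its genes, with a median of -0.15, and the groups did not overlap for 2 (background 8.16%). Without control mouse 4, 4 of the 6 were below 0 and the median was -0.078. After quantile normalization 5 of the 6 were below 0, the median was -0.030 and the groups overlapped for all 6. Arcn1, the delta subunit (gene at chromosome 9, 44741564 to 44767845), had 9835, 10271 and 10009 in control mice and 9206, 7401 and 8027 in Ntsr2 AKO mice. The control mice were close together and all Ntsr2 AKO mice lay below them, with means of 10038 ± 219.7 against 8211 ± 917 (SD, n = 3 mice per group). Its log2 fold change was -0.30 ± 0.12 (limma adjusted p = 0.59). Copa, the alpha subunit, had 14245, 14208 and 15247 in control mice and 13501, 12618 and 11987 in Ntsr2 AKO mice, likewise separate (log2 fold change -0.20 ± 0.11, limma adjusted p = 0.649). The beta subunits Copb1 (-0.13 ± 0.17) and Copb2 (-0.16 ± 0.13) and the gamma and epsilon subunits Copg1 (-0.12 ± 0.12) and Cope (-0.074 ± 0.13) had overlapping groups. Control mouse 4 was the highest of the 6 mice for Copb1, at 7985 against 5228 to 5764 in the other mice, and without it the log2 fold change of Copb1 was 0.053.

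Over both coats, 16 of 17 genes were lower, with a median log2 fold change of -0.18 and no overlap for 7 (background 8.16%). After quantile normalization 15 of 17 were lower, the median was -0.089 and none of the 17 had separate groups (background 6.13%). The count was 15 of 17 without control mouse 5, 17 of 17 without Ntsr2 AKO mouse 5, and 15 of 17 when control mice 3 and 4 were set against Ntsr2 AKO mouse 3, the mice with few skeletal muscle transcripts (median -0.12). The genes share their mice, so these counts do not stand for independent observations, and the coats were set against the other roles without a test.

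Cargo receptors link soluble cargo to the coats. All 6 had a log2 fold change below 0, with a median of -0.078, but 3 of them were above 0 after quantile normalization. Tmed10, a p24 protein that cycles between ER and Golgi, had 9966, 10690.1 and 9887 in control mice and 9758, 9135 and 8603 in Ntsr2 AKO mice, without overlap (log2 fold change -0.15 ± 0.11, limma adjusted p = 0.72). Surf4, an ER export receptor, had 8989.9, 9877 and 9173 in control mice and 8470.2, 8051 and 8922 in Ntsr2 AKO mice, also without overlap (log2 fold change -0.14 ± 0.11, limma adjusted p = 0.735). Tmed2, the partner of Tmed10, had the highest level of the 50 genes per kilobase of transcript, at 9403 normalized counts, and overlapping groups (log2 fold change -0.099 ± 0.13). The lectin Lman1 (-0.026 ± 0.15) and its cofactor Mcfd2 (-0.0068 ± 0.10), which together export blood clotting factors, and the lectin Lman2 (-0.058 ± 0.11) lay near 0.

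KDEL receptors return ER chaperones from the Golgi. Kdelr3 (gene at chromosome 15, 79516411 to 79527739) had the largest log2 fold change above 0 of the 50 genes and the lowest mean level, with 386, 630.3 and 403 in control mice and 539, 410.5 and 1333 in Ntsr2 AKO mice. Ntsr2 AKO mouse 5 alone was high, and it was also the mouse with the highest fibroblast and progenitor markers, whose part in this value was not tested. The log2 fold change was 0.53 ± 0.45 (95% interval -0.54 to 1.60, limma adjusted p = 0.766) and 0.029 without that mouse. Kdelr1 had 5758, 6408 and 5402 in control mice and 6252, 5574 and 6022 in Ntsr2 AKO mice (0.025 ± 0.11) and Kdelr2 had 3217, 3890.4 and 3166 in control mice and 2974, 3103 and 3982 in Ntsr2 AKO mice (-0.036 ± 0.16), each with overlapping groups. By level per kilobase Kdelr1 (3691) stood above Kdelr2 (1853) and Kdelr3 (437), and in every mouse the normalized counts had the same order.

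The SRP and its receptor showed both directions, with 5 of 8 genes lower and 3 higher. Of the particle's own proteins, Srp54a, Srp68 and Srp72 had a log2 fold change below 0 and Srp9, Srp14 and Srp19 above 0, none past the test. Srp68 had 3564, 3692 and 4578 in control mice and 3686, 3051 and 2543 in Ntsr2 AKO mice. Ntsr2 AKO mouse 3 lay within the range of the control mice and the other Ntsr2 AKO mice lay below it (log2 fold change -0.36 ± 0.17, limma adjusted p = 0.618). It was -0.25 without control mouse 5 and -0.22 without Ntsr2 AKO mouse 5. Its partner Srp72 had 4421, 5092 and 5060.2 in control mice and 4773, 3798 and 4036 in Ntsr2 AKO mice (-0.21 ± 0.13). Srpr, the alpha subunit of the SRP receptor (gene at chromosome 9, 35200175 to 35247973), had 6669, 7497 and 11109 in control mice and 7038, 5844 and 5855 in Ntsr2 AKO mice. Control mouse 5 stood above the rest as it did for Sar1b, and the log2 fold change of -0.40 ± 0.21 became -0.18 without that mouse. Srprb, the beta subunit that anchors the receptor, had 2124, 2044 and 2395 in control mice and 1932, 1752 and 1954 in Ntsr2 AKO mice, without overlap (log2 fold change -0.22 ± 0.12, limma adjusted p = 0.649). Of its exon bases, 20.7% are shared with the annotated gene Gm20425 on the same strand, so its counts could include reads of that gene. Since it is not known whether strand was kept, genes on the opposite strand could add reads too. Among others, Sec61a2 shares 19.9% of its exon bases with Nudt5, Spcs1 16.3% with Glt8d1 and Srp9 14.1% with Gm17968.

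Srp9 (0.20 ± 0.18), Srp14 (0.15 ± 0.13) and Srp19 (0.25 ± 0.16) were the 3 SRP genes above 0, each with overlapping groups and each highest in Ntsr2 AKO mouse 5. Without that mouse they were 0.074, 0.11 and 0.13. Srp9 and Srp14 form the part of the particle that pauses translation. Srp54a, the GTPase that binds the signal sequence, had 2470.2, 2685 and 2483 in control mice and 2172, 2157 and 2405 in Ntsr2 AKO mice (-0.18 ± 0.11, limma adjusted p = 0.68). The mouse genome carries the near-identical copies Srp54b and Srp54c, which are not among the 50 and were looked up after the values of Srp54a were seen, because reads could be split between the copies. Summed over the 3 copies, the level was 10869, 11558 and 11158 in control mice and 9575, 9384 and 10204 in Ntsr2 AKO mice, again without overlap (log2 ratio of the group means -0.20).

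The Sec61 channel and its partners lay around 0. Of 11 genes, 6 were below 0 and 5 above, no gene had separate groups, and the median log2 fold change was -0.00028. Sec61a1, the channel-forming subunit, had 5595, 6948 and 5867 in control mice and 5309.6, 4487 and 5717 in Ntsr2 AKO mice, with overlap (log2 fold change -0.25 ± 0.14, limma adjusted p = 0.669). Its paralogue Sec61a2 was at 529 normalized counts per kilobase against 1782 for Sec61a1, with 1150.4, 1242 and 1530.1 in control mice and 1353, 1387 and 1101 in Ntsr2 AKO mice (-0.027 ± 0.16). The small channel subunits Sec61b (0.042 ± 0.20) and Sec61g (0.10 ± 0.31), the post-translational translocation factors Sec62 (0.098 ± 0.10) and Sec63 (-0.10 ± 0.11), the stress-associated channel protein Serp1 (-0.10 ± 0.17) and the translocon-associated proteins Ssr1 (-0.012 ± 0.12), Ssr2 (0.033 ± 0.16) and Ssr3 (-0.00028 ± 0.14) all had overlapping groups. Ssr4, the remaining translocon-associated subunit, had 2975, 4476 and 3518 in control mice and 3341, 4285 and 5294 in Ntsr2 AKO mice, the highest value being that of Ntsr2 AKO mouse 5 (0.23 ± 0.22, limma adjusted p = 0.787). Without that mouse Ssr4 was 0.070, Sec61b -0.11 and Sec61g -0.17.

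Signal peptidase had 4 of 5 genes above 0, with a median log2 fold change of 0.10 and no separate groups. Its catalytic paralogues pointed the same way, Sec11a with 2308, 3022 and 2376 in control mice and 2782, 2919.9 and 2975 in Ntsr2 AKO mice (0.18 ± 0.14, limma adjusted p = 0.735) and Sec11c with 1358, 2038 and 1756 in control mice and 1724, 1809.7 and 2202 in Ntsr2 AKO mice (0.17 ± 0.18). The accessory subunits Spcs1 (0.10 ± 0.17) and Spcs2 (0.035 ± 0.18) were near 0. Without Ntsr2 AKO mouse 5 the values were 0.16 for Sec11a, 0.060 for Sec11c, -0.0069 for Spcs1 and -0.098 for Spcs2. Spcs3, the subunit that the catalytic activity needs, had 2626, 2911 and 3614 in control mice and 2419, 2363 and 3292 in Ntsr2 AKO mice, with overlap (-0.18 ± 0.18, limma adjusted p = 0.797). It was -0.056 without control mouse 5 and -0.34 without Ntsr2 AKO mouse 5. Over SRP, translocon and signal peptidase together, 12 of 24 genes were lower and 12 higher, against 8 and 16 after quantile normalization. The number of lower genes was 17 of 24 without control mouse 3, 16 without Ntsr2 AKO mouse 5 and 9 without control mouse 4, so the split moved with the mice that entered it.

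The deviation of each gene from its mean over the 6 mice, on the log2 scale, shows which mice set these values. For the COPII coat the median deviation was 0.10, 0.081 and 0.089 in control mice 3, 4 and 5 and -0.046, -0.15 and -0.16 in Ntsr2 AKO mice 3, 4 and 5. On the deposited scaling, to which these deviations belong, all control mice were on one side and all Ntsr2 AKO mice on the other. After quantile normalization the groups overlapped for all 11 COPII genes. For signal peptidase it was -0.23, 0.17 and -0.018 in control mice 3, 4 and 5 and -0.098, 0.012 and 0.27 in Ntsr2 AKO mice 3, 4 and 5, and for the translocon and its partners -0.16, 0.20 and -0.024 in control mice 3, 4 and 5 and -0.078, -0.041 and 0.11 in Ntsr2 AKO mice 3, 4 and 5. In those roles control mouse 3 was the lowest and control mouse 4 or Ntsr2 AKO mouse 5 the highest, so the spread within a group exceeded the difference between groups. COPI genes were highest in control mouse 4 and lowest in Ntsr2 AKO mouse 4, with medians of 0.0089, 0.20 and 0.023 in control mice 3, 4 and 5 and -0.0033, -0.14 and -0.025 in Ntsr2 AKO mice 3, 4 and 5.

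**Figure D3:**
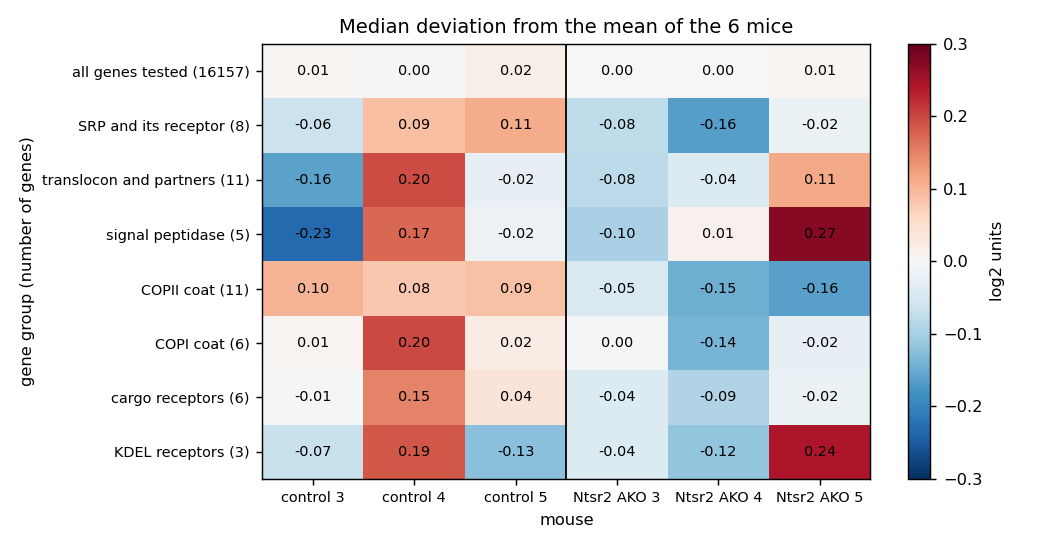
Median deviation from the mean of the 6 mice (colour and printed value, log2 units) for each gene role (rows, with the number of genes) in each mouse (columns), with all genes tested in the top row. Values are on the deposited scaling. The COPII row is above 0 in all 3 control mice and below 0 in all 3 Ntsr2 AKO mice, whereas the translocon and signal peptidase rows change sign within groups.

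Length of the transcript ran along with the direction of the difference. Across the 50 genes the Spearman correlation between the length of the longest coding transcript and the log2 fold change was -0.49, and across the 13819 genes tested that have such a length it was -0.13. These are correlations across genes measured in the same 6 mice, given as a description. It was -0.55 without control mouse 4, -0.35 without Ntsr2 AKO mouse 5 and -0.49 after quantile normalization. Of the 25 genes with the longest transcripts (2993 to 9333 bases), 23 were lower, with a median log2 fold change of -0.18. Of the 25 with the shortest (564 to 2957 bases), 12 were lower and 13 higher, with a median of 0.025. Among all genes tested, 4240 of 7320 genes of the longer class were lower (median -0.057) and 3022 of 6499 of the shorter class (median 0.027). Coat subunits are mostly long and most signal peptidase and small SRP subunits are short, so role and transcript length overlap in part. The coat genes Sec13, Sec23b, Sar1a, Sar1b and Cope were in the shorter class, and all were below 0. Outside the coats, the longer class held Srp54a, Srp72, Srpr, Srprb, Sec61a1, Sec62, Sec63, Serp1, Ssr1, Spcs3, Lman1, Lman2 and Surf4. Of these only Sec62 was above 0. Shorter genes outside the coats lay on both sides. The part of role and of length was not tested.

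**Figure D4:**
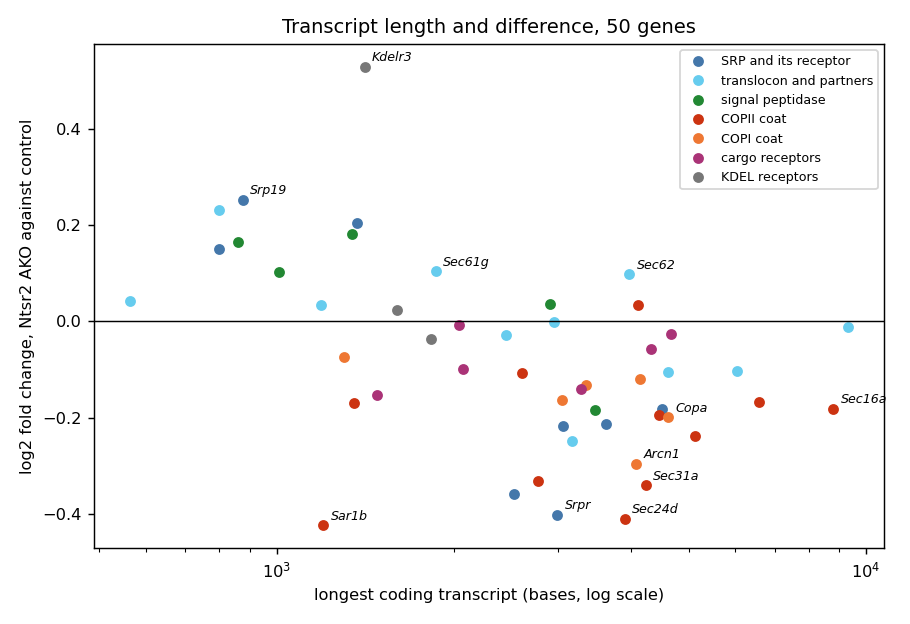
Log2 fold change (y axis, Ntsr2 AKO against control) against the length of the longest coding transcript (x axis, bases, log scale), 1 point per gene, coloured by role. Of the 25 genes with the longest transcripts 23 lie below 0, while the 25 with the shortest lie on both sides, with Kdelr3 the highest point and Sar1b the lowest.

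The promoters were read for letters that are known from stress control of secretory genes. The unfolded protein response factors XBP1 and ATF6 and the CREB3 family bind sequences built around ACGTG. Promoters of 300 bases (250 before to 50 after the start, RefSeq on GRCm38.p6) were at hand for 40 of the 50 genes. ACGTGT or ACGTGG, on either strand, stood in 23 of these 40 (57.5%), in 24 of 75 promoters of other secretory pathway genes (32.0%), in 2033 of 11312 genes tested (18.0%) and in 14.0% of all promoters of that length. ACGTGG alone was in 47.5% of the 40 against 12.9% of genes tested, and ACGTGT in 17.5% against 6.60%. ACGTGG contains, on its other strand, the letters CCACG, which were in 67.5% of the 40 promoters and 49.8% of genes tested. CCAAT was in 35.0% and 42.2%. The full ER stress response element, CCAAT followed after 9 bases by CCACG, was in 0 of the 40 and in 20 of the 11312. Base composition was close, with a median GC content of 59.7% for the 40 and 60.3% for genes tested, and a median of 20 and 19 CpG.

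Windows of 30 bases around the match are shown for the 6 genes that hold one and had no overlap between groups, and for Spcs1 and Kdelr3, which hold one and had a log2 fold change above 0. Sec23a, the remaining such gene, holds its match after the RefSeq start and is not shown. They are written 5′ to 3′ on the strand that reads ACGTGG or ACGTGT, in capitals, with coordinates on GRCm38.p6, and all lie upstream of the RefSeq start.
Sec24d: cccgggcgcctgACGTGGcactagcaaccc (chr3:123267460-123267489)
Sec31a: tccttcatatgtACGTGGaacttacatatt (chr5:100410074-100410103)
Sec24c: tgcctaaggccgACGTGGcagaaggagtgg (chr14:20674234-20674263)
Srprb: gccgccaaagttACGTGGctctaggctcca (chr9:103202084-103202113)
Sar1a: aagcggggtaagACGTGGcagcgtctgtca (chr10:61680116-61680145)
Tmed10: ttaaaaaataaaACGTGTacgaaaaactcc (chr12:85374877-85374906)
Spcs1: ggttgtggccctACGTGGctgctgcagagc (chr14:31001709-31001738)
Kdelr3: ggccgcgcggtgACGTGGcggggcggccag (chr15:79516366-79516395)
Those of Sec24d, Sec31a and Srprb lie inside the longer gene spans that GENCODE M21 gives. The windows of Sec24d, Sec31a, Sec24c and Tmed10 are on the strand of their gene and the other 4 on the opposite strand. The letters begin 24 bases before the start in Sec24d, 68 in Sec31a, 75 in Sec24c, 36 in Srprb, 157 in Sar1a, 177 in Tmed10, 60 in Spcs1 and 30 in Kdelr3. Of the 23 genes with a match, 20 had a log2 fold change below 0 (median -0.13) and 6 had separate groups. Of the 17 without, 8 were below 0 (median 0.025) and 4 had separate groups. Separate groups thus made up 26.1% and 23.5% (background 8.16%). The split by match overlaps the split by role and length, since 13 of the 23 with a match and 3 of the 17 without encode coat subunits, and the median transcript had 3346 bases with a match and 2448 without. Outside the coats, 8 of 10 genes with a match were below 0 (median -0.058) and 5 of 14 without (median 0.039). Match, role and length overlap in part here, and the part of each was not tested. The match is a string of letters and no binding was measured here.

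Total mRNA levels of the factors that read such letters, and of ER chaperones, were taken from the same mice. Spliced forms, protein and activity of these factors were not measured here. Creb3l1, a membrane-bound factor known to act on secretory and collagen genes, had 3402, 3065 and 2921 in control mice and 2379, 798 and 1273 in Ntsr2 AKO mice, with all Ntsr2 AKO mice below all control mice (log2 fold change -1.22 ± 0.37, limma adjusted p = 0.523, DESeq2 adjusted p = 0.143). Hspa5, the chaperone BiP, had 35207, 51252 and 41146 in control mice and 27727, 21847 and 27703 in Ntsr2 AKO mice, also separate (log2 fold change -0.72 ± 0.19, limma adjusted p = 0.522, DESeq2 adjusted p = 0.0349). Its difference was larger in size than that of any of the 50 genes. Xbp1 had 47659, 26029 and 21053 in control mice and 28640.4, 9731 and 14589 in Ntsr2 AKO mice, with control mouse 3 far above the rest and overlapping groups (log2 fold change -0.89 ± 0.45). Atf6 was lower in every Ntsr2 AKO mouse by a small amount (-0.18 ± 0.12, limma adjusted p = 0.69). Groups overlapped for Atf6b (-0.026 ± 0.15), Creb3 (-0.052 ± 0.13), Creb3l2 (-0.43 ± 0.25), Creb3l4 (-0.44 ± 0.57), the chaperone Hsp90b1 (-0.27 ± 0.17) and Creb3l3, which was low in all mice (6.44, 87.7 and 21.1 in control mice and 19.6, 71.5 and 251 in Ntsr2 AKO mice).

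Other genes of the same route gave a background for the 50. Of 90 such genes, from the oligosaccharyltransferase to ER-Golgi tethers, 88 passed the minimum level. Of these, 44 were lower and 44 higher, the median log2 fold change was -3.1e-05, and 0 had a limma adjusted p under 0.05. After quantile normalization 20 were lower and 68 higher, with a median of 0.092. At an unadjusted limma p under 0.05, 5 were lower (background 5.27%) and 3 higher (background 3.08%). The groups did not overlap for 7 in each direction (background 8.16% lower and 6.82% higher). The 3 lower genes with the smallest p were Tram2 (-0.62 ± 0.22), a translocation helper known for collagen synthesis, Ergic1 (-0.29 ± 0.11), a protein of the compartment between ER and Golgi, and Gbf1 (-0.35 ± 0.14), which activates the GTPase that recruits COPI. The 3 higher genes were Sec22a (0.63 ± 0.18), a SNARE-like protein, Sec16b (0.46 ± 0.12), the second Sec16 gene, and Trappc6a (0.41 ± 0.17), a tethering subunit. Sec16b had 1438, 1351 and 1288 in control mice and 1984, 1687 and 1943 in Ntsr2 AKO mice, all Ntsr2 AKO mice being above all control mice, while Sec16a among the 50 genes had 4972, 3523 and 3519.6 in control mice and 3948, 3682 and 2909 in Ntsr2 AKO mice. The opposite signs of the Sec16 genes were not tested against each other.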

How the data were processed

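WATs of 3 control and 3 Ntsr2 AKO mice were measured by RNA-seq of poly-A RNA (NEBNext Ultra libraries; whether strand was kept is not given in the sources used here). The authors used Trimmomatic for trimming, aligned to mm10 (per the submitters' processing notes) by Hisat2 and counted genes by StringTie. The values the authors deposited are a signal, the reads of each gene scaled by 1 size factor per mouse. That division was read from the values: with a tolerance of 0.001, 100% of them were whole multiples of 1 step per mouse, which gave back whole reads. Precision is limited by the number of mice more than by depth. Each column is 1 mouse, so p-values set the group difference against the spread between mice. In limma that spread is moderated by the other genes tested.

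Genes with a mean of at least 10 normalized counts were tested with limma 3.58.1 (R 4.3.3, mean-variance trend, two-sided) on log2(normalized count + 1), adjusted by Benjamini-Hochberg over all 16157 genes, with a threshold of 0.05. Fold changes on this scale understate low genes. The recovered reads were also tested with edgeR 4.0.16 (quasi-likelihood) and DESeq2 1.42.0. The fits were run on simulated data with changes far larger than those of the 50 genes. That run does not show whether such small differences can be detected. The 50 genes, their roles, the other lists and the skeletal muscle alternatives were chosen with earlier results of these data known. Genes were described by role, naming the 2 with the smallest p per role, the 10 with the smallest p in all, paralogue families, all listed regulators and, of other secretory genes, the 3 with the smallest p in each direction. Positions and transcript lengths are from GENCODE M21 and promoters from RefSeq (GRCm38.p6). Alternatives were pseudocounts of 0.1 and 5, no filter, a minimum mean of 50, quantile normalization, no trend, a replicate block, edgeR, DESeq2 and leaving out each mouse. A skeletal muscle covariate and control mice 3 and 4 against Ntsr2 AKO mouse 3 were chosen after seeing the data. Marker lists of plasma cells, B cells, T cells, macrophages, endothelial, mesothelial, mammary epithelial and pancreatic acinar cells were also summed.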

Additional observations from a re-analysis of the deposited data

How the results depend on the processing

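The number of mice limits these results, and no gene of the 50 had an adjusted p under 0.05 in any of 18 alternatives, the lowest being 0.287. Of 900 values (50 genes by 18 alternatives), 837 kept the sign of the reported difference, and 25 genes kept it in every alternative (20 lower, 5 higher). The cause of the changes below was not tested. Lower genes at an unadjusted p under 0.05 were 3 as reported, 0 after quantile normalization, 0 without the trend and 1 with edgeR under TMM. They were 1 with edgeR under the deposited size factors, 2 with the replicate block and 2 with the skeletal muscle covariate. They were 0 to 6 when a mouse was left out. Higher genes were then 0 to 1, the 1 without control mouse 4. Shares over all genes at that threshold are given above only for the main fit, edgeR under TMM and DESeq2. Lower genes without overlap were 11 as reported and 1 after quantile normalization. They were 23 for control mice 3 and 4 against Ntsr2 AKO mouse 3. With a mouse left out they were 12 to 18 (18 without control mouse 3). Higher genes without overlap were 0 as reported, 1 after quantile normalization, 1 for control mice 3 and 4 against Ntsr2 AKO mouse 3, and 0 to 5 with a mouse left out (5 without control mouse 4, 3 without Ntsr2 AKO mouse 3). Smaller groups overlap less by construction, and shares over all genes are not given for them. The counts from fewer mice, the 23 included, therefore cannot be set against the 11 as reported. In the fit of control mice 3 and 4 against Ntsr2 AKO mouse 3, the lone mouse was assumed to vary like the controls. That assumption does not enter the overlap counts. With TMM scaling the genes without overlap were 8 lower and 0 higher. Overlap was not computed for the replicate block, the fit without the trend, edgeR under the deposited size factors, DESeq2 and the muscle covariate. Genes below 0 numbered 28 to 40, and the median log2 fold change of the 50 was -0.12 to -0.043, when a mouse was left out. Over all genes tested, the adjusted calls were 1 as reported, 220 with DESeq2 and 0 with edgeR under either scaling, with no filter, without the trend, with the replicate block, with the muscle covariate, for control mice 3 and 4 against Ntsr2 AKO mouse 3, and when any mouse was left out. Mice with the same number shared no stated origin. Correlations of deviations were 0.45, -0.24 and 0.41 for numbers 3, 4 and 5, and ran from -0.52 to 0.26 between mice of unlike number. Whether the numbers pair mice is not known, so the replicate block is given only here.

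Log2 fold changes that changed sign were, after quantile normalization, Sec61a2 0.025, Sec63 0.0032, Ssr1 0.11, Ssr3 0.085, Cope 0.027, Lman1 0.075, Lman2 0.054, Mcfd2 0.096, Kdelr2 0.062; with edgeR, Ssr3 0.0076, Mcfd2 0.0049; with DESeq2, Ssr3 0.0031, Mcfd2 0.00054; and for control mice 3 and 4 against Ntsr2 AKO mouse 3, Srp9 -0.078, Srp14 -0.031, Srp68 0.023, Srp72 0.0085, Sec61a2 0.18, Sec61b -0.26, Sec61g -0.41, Ssr2 -0.021, Ssr4 -0.13, Spcs1 -0.028, Spcs2 -0.25, Sec24b 0.084. With a mouse left out the ranges of the genes that changed sign were Sec61b -0.11 to 0.22, Sec61g -0.17 to 0.34, Ssr2 -0.088 to 0.18, Spcs1 -0.026 to 0.22, Spcs2 -0.098 to 0.18, Serp1 -0.21 to 0.011, Ssr1 -0.075 to 0.066, Ssr3 -0.098 to 0.058, Sec23a -0.14 to 0.21, Copb1 -0.25 to 0.053, Cope -0.14 to 0.029, Lman1 -0.14 to 0.050, Mcfd2 -0.046 to 0.017, Kdelr2 -0.17 to 0.059, Sec61a2 -0.11 to 0.091, Sar1b -0.83 to 0.13, Kdelr1 -0.032 to 0.092.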

Other observations

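Cells other than adipocytes also use the secretory route, and their markers were summed in the same mice as normalized counts. Macrophage markers ran from 32750.2 to 96963 in control mice and 34396 to 78978 in Ntsr2 AKO mice, endothelial markers from 17004 to 26467 in control mice and 16830.5 to 22959.7 in Ntsr2 AKO mice and the summed levels overlapped for both. By single genes, 7 of 7 macrophage markers tested had a log2 fold change below 0, as did 6 of 6 T cell markers, 4 of 6 endothelial markers, 4 of 7 plasma cell markers and 1 of 5 B cell markers. Of the fibroblast and progenitor markers 7 of 8 were above 0, and of the skeletal muscle markers 9 of 11. None of the macrophage, T cell, fibroblast or skeletal muscle markers had an unadjusted limma p under 0.05. Plasma cell markers, which include Xbp1, ran from 23917 to 51094 in control mice and 11872 to 47275 in Ntsr2 AKO mice. Xbp1 alone held most of that sum in each mouse, at 21053 to 47659 in control mice and 9731 to 28640 in Ntsr2 AKO mice. The sum is thus largely a repeat of the Xbp1 values. B cell markers ran from 55.6 to 717 in control mice and 152 to 175 in Ntsr2 AKO mice and T cell markers from 191 to 1138 in control mice and 106 to 368 in Ntsr2 AKO mice. Mesothelial markers ran from 157 to 470.4 in control mice and 142 to 177 in Ntsr2 AKO mice, with Wt1 at 0 in 5 mice and Upk3b at 0 in 5 mice. Mammary epithelial markers ran from 7.22 to 198 in control mice and 0 to 10.4 in Ntsr2 AKO mice, and all 6 in the table were at 0 in Ntsr2 AKO mouse 5. The pancreatic acinar list was measured by 1 gene, at 497 to 1039 in control mice and 573 to 967 in Ntsr2 AKO mice. The part of these cells in the levels of the 50 genes was not tested.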
